A study of Mus musculus with 18 samples.

Results

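The Schlafen genes form a family of interferon-regulated genes in mammals, clustered in the mouse on chromosome 11. Genes were taken as members when their name in the authors' deposited table begins with Slfn and the table lists them between any pair of the 6 groups used here. This gave 6 of the 5455 named genes, namely Slfn2, Slfn3, Slfn5, Slfn8, Slfn9 and Slfn10-ps, with 12 transcript entries and 58 listed differences between groups. A further gene, Slfn1, is listed with an assembled-locus name before its own name, so it lies outside that rule and is given beside the 6. All 12 entries were found by transcript and gene name in the GENCODE M21 annotation.

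Schlafen proteins share an amino-terminal core that in several members binds or cleaves RNA, transfer RNA in particular. Slfn1 and Slfn2 are short and consist of little beyond the core, Slfn3 is intermediate, and Slfn5, Slfn8 and Slfn9 carry in addition a carboxy-terminal region related to RNA helicases. Slfn2 is required for the quiescence of mouse T cells and protects transfer RNA from stress-induced cleavage, while Slfn10-ps is annotated as a pseudogene. Type I interferon induces several Schlafen genes in mouse cells, and in macrophages their levels change with activation.

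The cells were RAW264.7, a mouse macrophage-like line, studied by sequencing of poly(A)-selected, strand-specific libraries from 18 samples in 6 groups of 3. In 4 groups the cells carried pINDUCER20-mCITED1, a lentiviral vector that makes mouse CITED1 when doxycycline is added. CITED1 is a nuclear co-factor that alters transcription without binding DNA itself. These construct cells received doxycycline and interferon-gamma together, interferon-gamma alone, doxycycline alone or neither, and parental RAW264.7 cells received doxycycline or nothing. Doxycycline was used at 100 ng/mL and recombinant mouse interferon-gamma at 200 U/mL. The labels give no time of treatment for these samples and do not say whether the construct cells were 1 clone or whether replicate samples were grown apart. No parental cells given interferon-gamma were analysed here, so the response to interferon-gamma was measured in construct cells alone.

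The deposited table gives, for each listed difference, 1 linear fold, 1 summed FPKM and 1 q-value (the authors' p after correction for multiple testing). FPKM are fragments scaled by transcript length and library size, so levels may be set beside each other between genes. No values per sample are given, so no level below has an SD, n or depth, and every call is the authors' own. Each listed difference is 2-fold or larger, and its q is at most 0.05. A comparison that is not listed is therefore not shown to be without change, and it may also be one that could not be tested. As the table holds called differences only, each Schlafen gene in it had to differ somewhere, and the counts below describe these genes and support nothing further. Group levels were rebuilt from the summed FPKM and the fold, and 24 Schlafen levels obtained from more than 1 comparison differed by at most 0.229%.

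The induction itself was visible in Cited1, the gene on the construct. Its rebuilt level was 86.7 FPKM with both agents, 11.5 FPKM with interferon-gamma, 168 FPKM with doxycycline and 0.703 FPKM in untreated construct cells. The rebuilt level of Cited1 thus differed with interferon-gamma as well, being higher without doxycycline and lower with it. The fall with doxycycline is under the 2-fold limit and not listed. Cells called without and with induction therefore differ in rebuilt Cited1 level within each comparison too. Among 10 macrophage markers the table lists 6, while Lyz2, Csf1r, Cd14 and Mrc1 have no listed difference. Of the 6, Aif1 and Fcgr3 rose with interferon-gamma both without and with induction. With both agents against doxycycline Spi1 also rose, to 350 FPKM with both agents against 151 FPKM with doxycycline, while Cd68, Itgam and Adgre1 fell. Cd68 was at 255 FPKM with both agents and 661 FPKM with doxycycline, and Itgam at 20.0 FPKM with both agents and 44.0 FPKM with doxycycline. Adgre1 was in addition 2.34-fold lower in construct than in parental cells in the authors' deposited table, without and with doxycycline. Among 12 markers of other cells it lists 3, all of dendritic cells (Xcr1, Clec9a and Zbtb46). Flt3, also a dendritic-cell marker, and the T cell, B cell, fibroblast, epithelial and neutrophil markers have no listed difference. Of all named genes 25.7% were listed as higher and 24.5% as lower with interferon-gamma without induction. With induction these shares were 33.7% and 34%. Xcr1 was at 17.7 FPKM with both agents, 6.61 FPKM with interferon-gamma, 0.0360 FPKM with doxycycline and 0.0430 FPKM in untreated construct cells. Clec9a was at 133 FPKM with both agents, 80.4 FPKM with interferon-gamma and 0.0437 FPKM in untreated construct cells. Zbtb46 was at 0.575 FPKM with interferon-gamma and 0.183 FPKM in untreated construct cells. Xcr1, Clec9a and Zbtb46 thus rose with interferon-gamma without induction, as did 5 of the 6 Schlafen genes below. The part of these dendritic-cell genes and of the macrophage markers in the results was not tested. Where a level differs between bulk samples, a different number of expressing cells and a different amount of RNA per cell cannot be told apart.

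Since interferon-regulated genes are commonly controlled through short elements just before the gene's start, the 250 bases before the annotated starts are shown for 5 of the 6 genes. Slfn8, Slfn9 and Slfn5 hold a match to the core of the interferon-stimulated response element, spelled GAAA, then NN, then GAAA (N for any base), and searched on both strands. Slfn2, the most abundant of the 6, and Slfn3, the one lower in cells given both agents, are shown for contrast. The sequences are RefSeq's for GRCm38.p6 and run 5′ to 3′ on the strand of the gene, and capitals mark the match. They lie at chr11:83020811-83021060 (minus strand) for Slfn8, chr11:82991831-82992080 (minus strand) for Slfn9 and chr11:82951852-82952101 (plus strand) for Slfn5. The Slfn2 window lies at chr11:83064862-83065111 and the Slfn3 window at chr11:83191080-83191329, both on the plus strand.
Slfn8: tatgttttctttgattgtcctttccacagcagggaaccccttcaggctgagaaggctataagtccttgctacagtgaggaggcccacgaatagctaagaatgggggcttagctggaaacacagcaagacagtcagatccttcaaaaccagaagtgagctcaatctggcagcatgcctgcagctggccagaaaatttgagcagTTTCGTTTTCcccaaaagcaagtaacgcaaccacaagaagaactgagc
Slfn9: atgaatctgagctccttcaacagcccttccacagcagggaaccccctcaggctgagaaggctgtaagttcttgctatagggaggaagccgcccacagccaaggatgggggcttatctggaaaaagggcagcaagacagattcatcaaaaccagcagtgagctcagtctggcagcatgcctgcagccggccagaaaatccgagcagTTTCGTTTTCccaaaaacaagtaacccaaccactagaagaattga
Slfn5: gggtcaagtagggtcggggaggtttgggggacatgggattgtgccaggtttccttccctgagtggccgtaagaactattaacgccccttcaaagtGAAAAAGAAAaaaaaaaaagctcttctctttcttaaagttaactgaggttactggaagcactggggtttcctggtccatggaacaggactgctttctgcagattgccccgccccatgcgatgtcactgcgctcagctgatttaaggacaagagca
Slfn2: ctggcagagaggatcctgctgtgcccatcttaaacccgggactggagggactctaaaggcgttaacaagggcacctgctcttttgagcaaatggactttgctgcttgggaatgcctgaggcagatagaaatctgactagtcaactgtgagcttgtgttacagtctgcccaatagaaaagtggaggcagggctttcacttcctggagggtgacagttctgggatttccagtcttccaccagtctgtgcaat
Slfn3: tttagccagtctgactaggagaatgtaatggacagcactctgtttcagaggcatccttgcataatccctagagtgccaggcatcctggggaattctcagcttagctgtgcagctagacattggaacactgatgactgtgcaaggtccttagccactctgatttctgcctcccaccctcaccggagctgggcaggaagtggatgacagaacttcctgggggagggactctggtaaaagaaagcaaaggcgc

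In Slfn8 the match spans bases -48 to -39 from the start and in Slfn9 bases -45 to -36. Both read TTTCGTTTTC on the strand of the gene and GAAAACGAAA on the other. In Slfn5 it spans bases -155 to -146 and reads GAAAAAGAAA on the strand of the gene, at the head of a run of A. The windows of Slfn8 and Slfn9 were 79.8% identical over 258 aligned columns, whereas the window of Slfn5 was 44.7% identical to that of Slfn8 and 42.8% to that of Slfn9. A second annotated start of Slfn8 holds the same site further from the start, and the window of Slfn1 holds no match. Slfn10-ps had no window. Of all 32841 RefSeq windows of this length, 978 (2.98%) hold the response-element core. The gamma-activated site, spelled TTC, then NNN, then GAA, and the same on both strands, was found in none of the Schlafen windows and in 7.02% of all windows. A match is a string of letters, not a shown binding site, and its absence says only that these letters are not in this window.

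**Figure D1:**
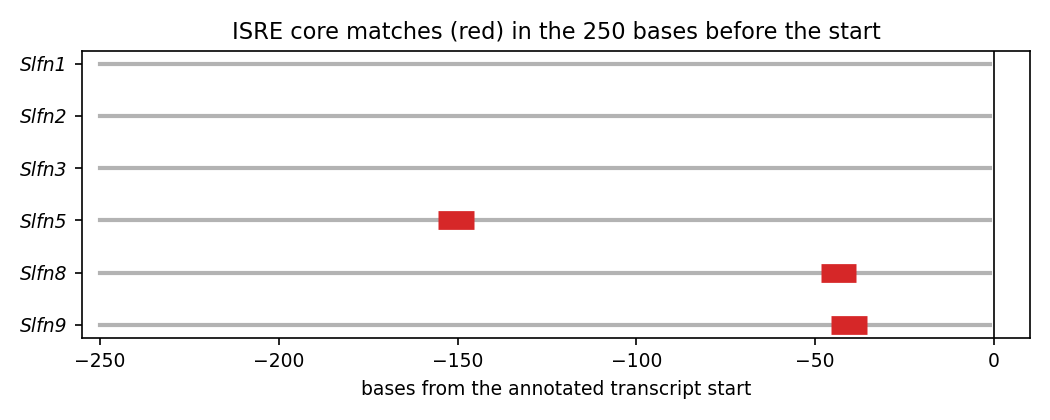
Position of matches to the interferon-stimulated response element core (red boxes) in the 250 bases before the annotated start of 6 Schlafen genes, with distance from the start in bases on the horizontal axis. Slfn8 and Slfn9 have a match within 50 bases of the start, Slfn5 has one further upstream, and Slfn1, Slfn2 and Slfn3 have none.

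Interferon-gamma without induction was examined by setting construct cells given interferon-gamma against untreated construct cells. Slfn2, Slfn5, Slfn8, Slfn9 and Slfn10-ps rose and none of the 6 fell, while Slfn3 was not listed. Of all named genes 25.7% were listed as higher in this comparison, 24.5% as lower and 50.4% in either direction. The median log2 fold of the 5 Schlafen genes was 2.61, beside 1.54 over all genes listed as higher and 1.01 over all genes listed in either direction.

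Slfn2, the short member needed for T cell quiescence, had the highest levels of the family. It stood at 359 FPKM with interferon-gamma, 59.1 FPKM with doxycycline and 58.9 FPKM in untreated construct cells, and at 72.4 and 76.6 FPKM in parental cells with and without doxycycline. The authors' deposited table gives a 6.10-fold rise with interferon-gamma (q = 3.9e-04). The 4 groups without interferon-gamma thus lie close together and well below the stimulated one. The table lists no Slfn2 difference that involves cells given both agents, so its level there is unknown.

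Slfn5 is a long, helicase-bearing member whose human counterpart acts in the nucleus as a regulator of interferon-driven transcription. Its main transcript, Slfn5-201, was at 59.2 FPKM with interferon-gamma, 8.83 FPKM with doxycycline and 7.55 FPKM in untreated construct cells, and at 8.95 and 10.2 FPKM in parental cells with and without doxycycline. The authors' deposited table gives folds of 7.85 for Slfn5-201 (q = 3.9e-04) and 7.87 for the shorter Slfn5-203 (q = 0.0306), both higher with interferon-gamma. Slfn5-203 was at 9.63 FPKM with interferon-gamma and 1.22 FPKM in untreated construct cells, so both transcripts differed by nearly the same factor. An antisense gene, Slfn5os, overlaps Slfn5, and whether the authors counted by strand is not given in the sources used here.

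Slfn8, another long member, was the least abundant of the 6 in untreated construct cells and had the largest fold over that group. Slfn8-201 was at 8.48 FPKM with interferon-gamma and 0.793 FPKM in untreated construct cells, a 10.70-fold rise in the authors' deposited table (q = 3.9e-04). That order rests on its low level in untreated construct cells. With a pseudocount of 1 FPKM the log2 ratio was 2.40 for Slfn8-201, against 2.59 for Slfn2-201 and 2.82 for Slfn5-201. With untreated parental cells as the other group, the authors' deposited table gives folds of 3.91 for Slfn8-201, 4.69 for Slfn2-201 and 5.79 for Slfn5-201, all higher with interferon-gamma. Its near relatives Slfn9 and Slfn10-ps had much smaller folds. Slfn9-201 was at 11.6 FPKM with interferon-gamma and 5.29 FPKM in untreated construct cells, a fold of 2.19 in the authors' deposited table. Slfn10-ps-201 was at 10.2 FPKM with interferon-gamma and 4.55 FPKM in untreated construct cells, a fold of 2.25 in the authors' deposited table. For the second Slfn9 transcript, Slfn9-203, the levels were 4.48 FPKM with interferon-gamma and 2.70 FPKM in untreated construct cells, and no difference is listed.

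The calls of Slfn9 and Slfn10-ps were the smallest. Over entries with both levels, the median log2 ratio between these groups was 0.65. Only 4.13% of these entries lay within 0.5 of 0, so this median need not measure scaling. After setting it to 0 the log2 ratios were 0.48 for Slfn9-201 and 0.52 for Slfn10-ps-201, under the 2-fold limit. Slfn2, Slfn5 and Slfn8 stayed above it. Slfn3-202 was at 1.84 FPKM with interferon-gamma and 1.91 FPKM in untreated construct cells, which is a log2 ratio of -0.05.

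**Figure D2:**
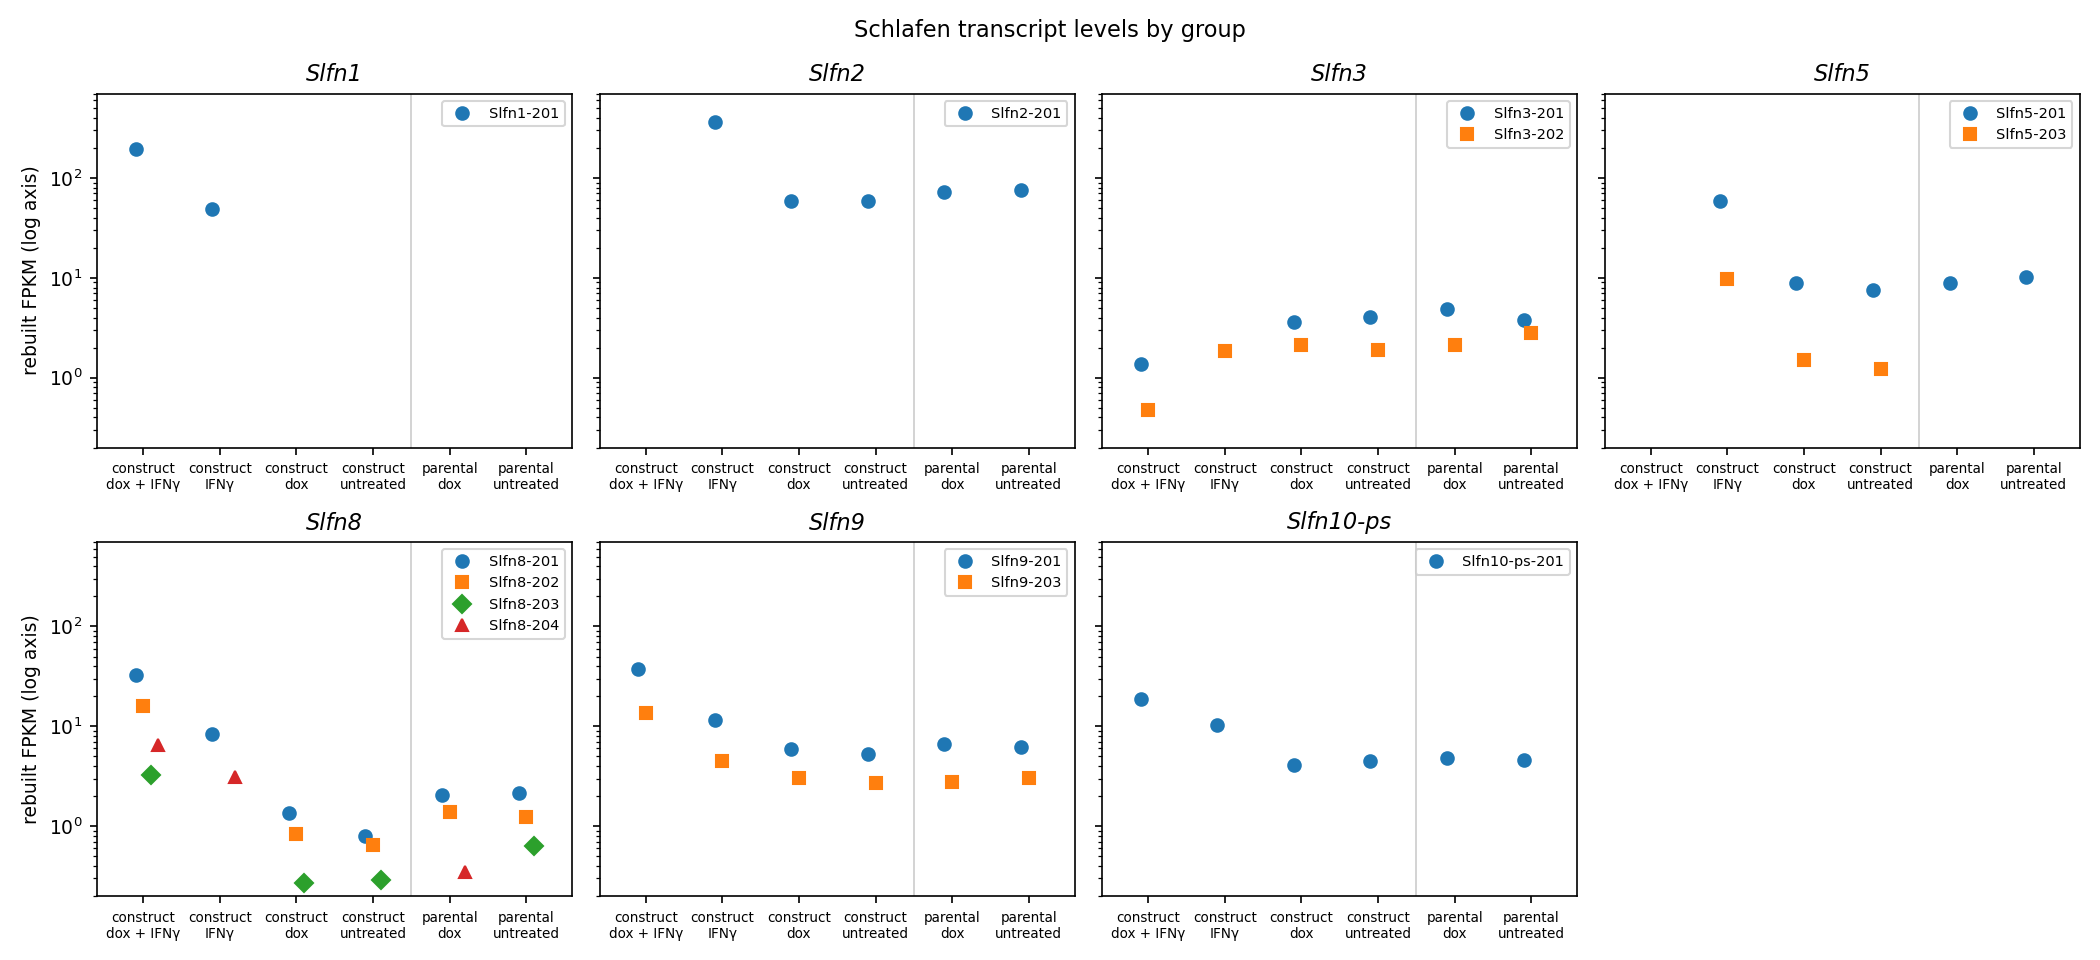
Rebuilt FPKM (vertical axis, logarithmic) of each Schlafen transcript entry in the 6 groups (horizontal axis), 1 panel per gene and 1 symbol per transcript, with no error bars because no values per sample are given. Slfn2 and Slfn5 stand high with interferon-gamma and have no level with both agents, Slfn8, Slfn9 and Slfn10-ps are highest with both agents, and Slfn3 is lowest there.

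The response to interferon-gamma under CITED1 induction was examined by setting both agents against doxycycline alone. Slfn8, Slfn9 and Slfn10-ps rose, Slfn3 fell, and Slfn2 and Slfn5 were not listed. Of all named genes 33.7% were listed as higher, 34% as lower and 67.8% in either direction. The median log2 fold of the 4 Schlafen genes, the fall of Slfn3 included, was 2.43, beside -1 over all genes listed in either direction. The latter depends on the balance of rises and falls. It was 1.65 over genes listed as higher alone and -1.54 over those listed as lower alone.

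Slfn8 again had the largest fold. Slfn8-201 was at 32.8 FPKM with both agents and 1.35 FPKM with doxycycline, and the authors' deposited table gives a 24.40-fold rise (q = 3.9e-04). Slfn8-202 was at 15.9 FPKM with both agents and 0.831 FPKM with doxycycline, a fold of 19.11 in the authors' deposited table. Slfn8-203, with a shorter coding region, was at 3.24 FPKM with both agents and 0.273 FPKM with doxycycline, a fold of 11.86 in the authors' deposited table. All 3 rebuilt levels were thus more than 10 times as high with both agents. That factor rests on levels under 1 FPKM with doxycycline for Slfn8-202 and Slfn8-203. With a pseudocount of 1 FPKM the log2 ratios were 3.85 for Slfn8-201, 3.20 for Slfn8-202 and 1.73 for Slfn8-203, below 10-fold for the last 2. Summed over its 4 entries, Slfn8 reached 58.4 FPKM with both agents, of which Slfn8-201 made up 56.1%.

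Slfn9-201 was at 37.2 FPKM with both agents and 5.93 FPKM with doxycycline, and the authors' deposited table gives a fold of 6.28 (q = 3.9e-04). Slfn9-203 was at 13.6 FPKM with both agents and 3.04 FPKM with doxycycline, a fold of 4.48 in the authors' deposited table (q = 7.5e-04). Slfn10-ps-201 was at 18.8 FPKM with both agents and 4.06 FPKM with doxycycline, a fold of 4.63 in the authors' deposited table (q = 3.9e-04). The related genes Slfn8, Slfn9 and Slfn10-ps thus moved the same way at different sizes.

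Slfn3, studied in the rat for its link to the differentiation of intestinal cells, was the exception. Slfn3-201 was at 1.38 FPKM with both agents and 3.60 FPKM with doxycycline, and the authors' deposited table gives a 2.61-fold fall (q = 3.9e-04). Slfn3-202 was at 0.477 FPKM with both agents and 2.14 FPKM with doxycycline, a 4.49-fold fall in the authors' deposited table (q = 0.0149). The level of Slfn3-202 was between 1.84 and 2.81 FPKM in the other 5 groups.

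CITED1 induction in stimulated cells was examined by setting both agents against interferon-gamma alone, cells that differ only in doxycycline. As no parental cells with interferon-gamma were analysed, effects of CITED1 and of doxycycline itself cannot be told apart in stimulated cells. Slfn8 and Slfn9 rose, Slfn3 fell, and Slfn2, Slfn5 and Slfn10-ps were not listed. Of all named genes 6.84% were listed as higher, 6.34% as lower and 13.2% in either direction. The median log2 fold of the 3 Schlafen genes, the fall of Slfn3 included, was 1.68, beside 1.01 over all genes listed in either direction. It was 1.30 over genes listed as higher alone and -1.29 over those listed as lower alone.

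Slfn8-201 was at 32.8 FPKM with both agents and 8.48 FPKM with interferon-gamma, and the authors' deposited table gives a 3.87-fold rise (q = 3.9e-04). Slfn9-201 was at 37.2 FPKM with both agents and 11.6 FPKM with interferon-gamma, a fold of 3.21 in the authors' deposited table (q = 3.9e-04). Slfn9-203 was at 13.6 FPKM with both agents and 4.48 FPKM with interferon-gamma, a fold of 3.04 in the authors' deposited table (q = 0.0170). Both transcripts of Slfn9 therefore differed by about the same factor. Slfn10-ps-201 was at 18.8 FPKM with both agents and 10.2 FPKM with interferon-gamma, a ratio of 1.84 that is under the 2-fold limit and not listed. Slfn8-204 was at 6.52 FPKM with both agents and 3.13 FPKM with interferon-gamma, a ratio of 2.08 that is not listed either.

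Slfn3-202 was at 0.477 FPKM with both agents and 1.84 FPKM with interferon-gamma. The authors' deposited table gives a 3.86-fold fall (q = 0.0259), a call that is lost at a q of 0.01 or less. Slfn3-201 has no level with interferon-gamma alone, so whether it moved alike is unknown. Slfn1, the short gene outside the naming rule, was at 193 FPKM with both agents and 48.6 FPKM with interferon-gamma, a 3.97-fold rise in the authors' deposited table (q = 3.9e-04). That is its only listed difference, so its levels in the 4 unstimulated groups are unknown.

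**Figure D3:**
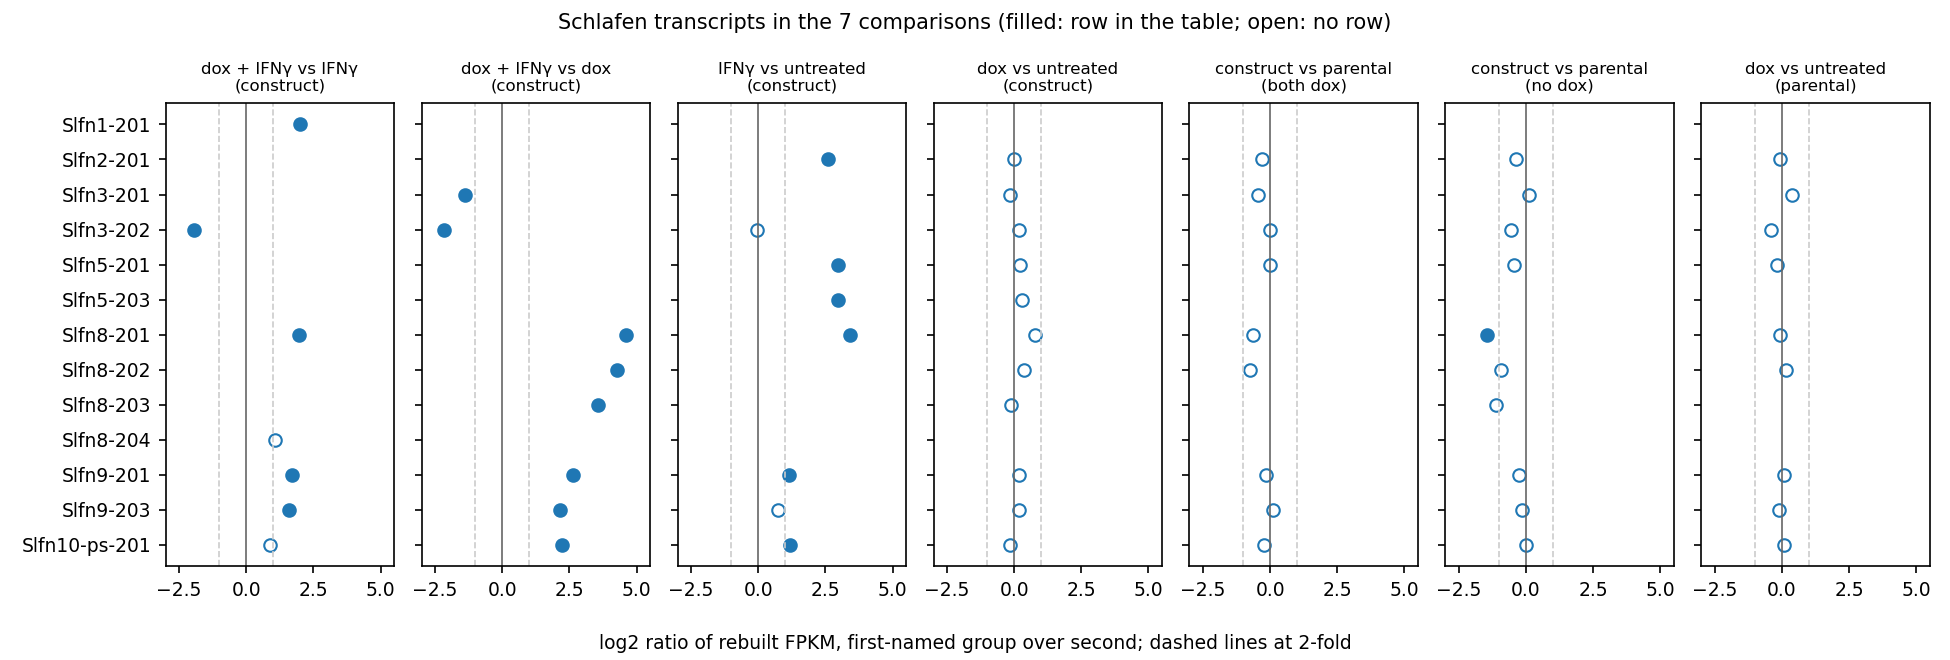
Log2 ratio of rebuilt FPKM (horizontal axes), first-named group over second, for each Schlafen transcript entry (vertical axis) in the 7 comparisons, with filled circles for differences listed by the authors, open circles for ratios not listed and dashed lines at 2-fold. Filled circles cluster in the 3 comparisons with interferon-gamma, and the only one elsewhere is Slfn8-201 in construct against parental cells without doxycycline.

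The fold of a gene with interferon-gamma can be set side by side with and without induction for 5 entries. These comparisons share no group, but no test of their difference could be run without values per sample. On the log2 scale of rebuilt levels, Slfn8-201 differed by 4.61 with induction and 3.42 without, a gap of 1.19. Slfn9-201 differed by 2.65 with induction and 1.13 without, and Slfn9-203 by 2.16 with induction and 0.73 without. Slfn10-ps-201 differed by 2.21 with induction and 1.17 without. The gap was thus positive in these 4 entries, at 1.04 to 1.52, and negative in Slfn3-202, at -2.11. Both comparisons have a median shift, of 1.02 with induction and 0.65 without. Few of the entries behind these medians lay near 0, so the shifts need not measure scaling. With both set to 0, a step added after seeing the data, the gaps were 0.82 for Slfn8-201, 1.15 for Slfn9-201, 1.06 for Slfn9-203, 0.67 for Slfn10-ps-201 and -2.48 for Slfn3-202.

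CITED1 induction in unstimulated cells, doxycycline against no treatment in construct cells, gave no listed Schlafen difference, with 0.403% of all genes listed (0.202% as higher and 0.202% as lower). The largest ratio was that of Slfn8-201, at 1.35 FPKM with doxycycline and 0.793 FPKM in untreated construct cells, a ratio of 1.70. Doxycycline in parental cells gave none either, with 0.898% of all genes listed (0.11% as higher and 0.788% as lower). Slfn8-201 was at 2.07 FPKM with doxycycline and 2.17 FPKM without. Slfn2 was at 72.4 FPKM with doxycycline and 76.6 FPKM without in those parental cells, a ratio of 0.945.

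The construct line itself was compared with the parental line. Without doxycycline, Slfn8 was lower in construct cells, and 2.77% of all genes were listed as lower, 1.72% as higher and 4.49% in either direction. Slfn8-201 was at 0.793 FPKM in construct cells and 2.17 FPKM in parental cells, and the authors' deposited table gives a 2.73-fold fall (q = 0.0121). The call is lost at a q of 0.01 or less. Slfn8-202 was at 0.647 FPKM in construct cells and 1.24 FPKM in parental cells and Slfn8-203 at 0.293 FPKM in construct cells and 0.631 FPKM in parental cells, neither of them listed. With doxycycline in both lines no Schlafen gene was listed, against 5.61% of all genes (2.44% as higher and 3.17% as lower). Slfn8-201 was then at 1.35 FPKM in construct cells and 2.07 FPKM in parental cells, a ratio of 0.648.

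Across groups the order of the members' most abundant transcripts changed. With both agents the highest levels were 37.2 FPKM for Slfn9-201, 32.8 FPKM for Slfn8-201 and 18.8 FPKM for Slfn10-ps-201, leaving aside the genes with no level there. With interferon-gamma alone, Slfn2 at 359 FPKM was followed by Slfn5-201 at 59.2 FPKM, Slfn9-201 at 11.6 FPKM, Slfn10-ps-201 at 10.2 FPKM and Slfn8-201 at 8.48 FPKM. In untreated construct cells Slfn2 at 58.9 FPKM was followed by Slfn5-201 at 7.55 FPKM, Slfn9-201 at 5.29 FPKM, Slfn10-ps-201 at 4.55 FPKM and Slfn3-201 at 4.05 FPKM, with Slfn8-201 at 0.793 FPKM. Slfn8-201 thus stood below Slfn3-201 in untreated construct cells and above it with both agents. Summed over listed transcripts the order differs in places. With both agents Slfn8 was then at 58.4 FPKM, summed over 4 entries, and Slfn9 at 50.9 FPKM. With interferon-gamma alone Slfn8 was at 11.6 FPKM, summed over only 2 entries, and Slfn10-ps at 10.2 FPKM. The remaining Slfn8 entries have no level with interferon-gamma alone. The sum of 11.6 FPKM is therefore a lower bound and cannot be set against the 58.4 FPKM with both agents. Whether neighbours in these orders differ beyond their spread cannot be tested without values per sample.

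Slfn2 and Slfn5 share the lack of any listed difference in cells given both agents. Of 1194 entries listed as higher with interferon-gamma alone than in all 4 groups without it, 100 (8.38%) have no listed difference that involves both agents. Among the 271 of these with at least 50 FPKM with interferon-gamma alone, they were 37 (13.7%), Slfn2-201 and Slfn5-201 among them. No level can lie within 2-fold of both 359 and 76.6 FPKM, so at least 1 Slfn2 difference that involves both agents must exceed 2-fold, and the same holds for Slfn5-201. Why none is listed was not tested, and the response of Slfn2 and Slfn5 to interferon-gamma under CITED1 induction is not known from the table.

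Sequence shared between members limits how far their levels are separate. Of the 50-base stretches of Slfn8-201, 15.4% also occur in transcripts of another Schlafen gene, as do 11.2% of those of Slfn9-201, 21.4% of those of Slfn9-203 and 19.7% of those of Slfn10-ps-201. Slfn2 and Slfn5 share none, and Slfn3 and Slfn1 share under 1% with each other. Only the Schlafen transcripts listed here were compared, so sequence shared with other transcripts is not counted for any of these genes. Levels of Slfn8, Slfn9 and Slfn10-ps are uncertain at least to that extent, because how the authors assigned reads that fit several genes is not given in the sources used here. Transcripts of 1 gene overlap far more, with 96.2% to 100% of the stretches of each Slfn8 entry found in another Slfn8 entry, so entries of a gene are not independent measurements.

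**Figure D4:**
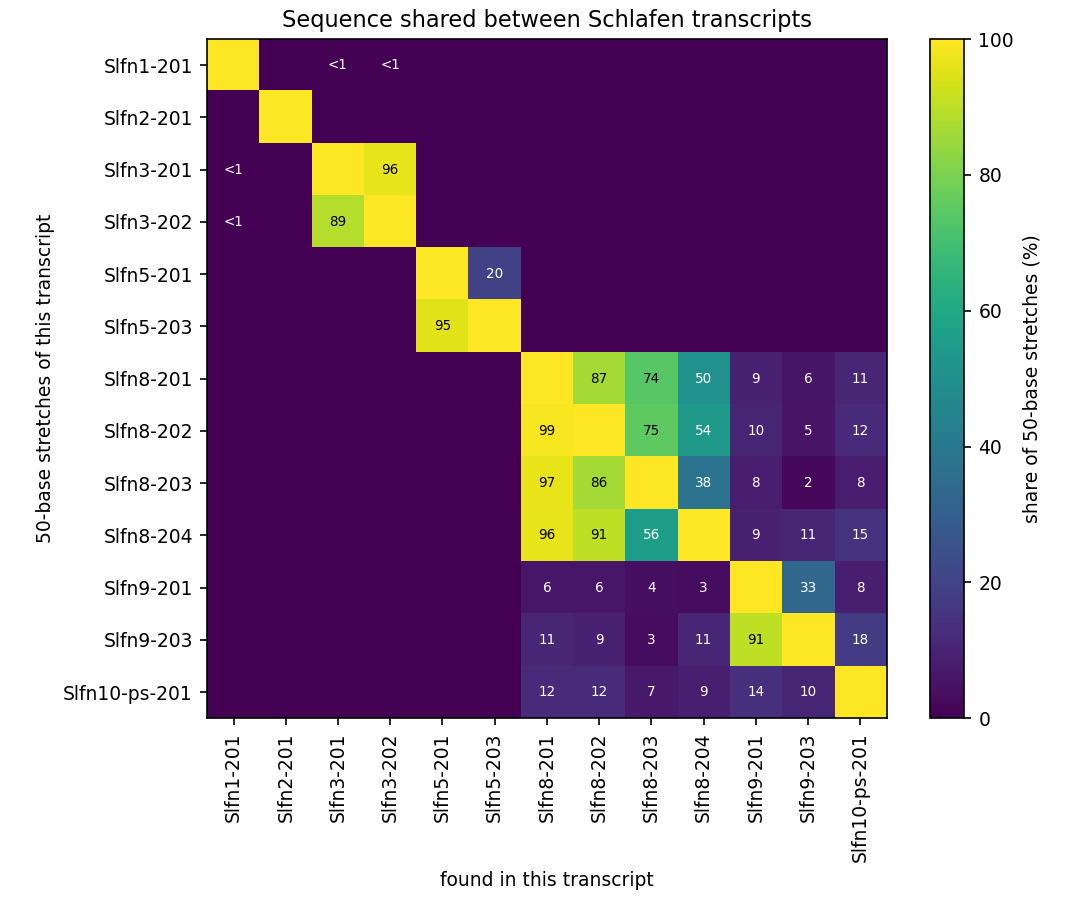
Share of the 50-base stretches of each Schlafen transcript (vertical axis) that also occur in each other transcript (horizontal axis), as a colour scale in percent with rounded values printed. Slfn8, Slfn9 and Slfn10-ps form a block that shares sequence between genes, and Slfn2 and Slfn5 share none with the other genes shown.

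For each Schlafen entry listed in at least 2 of the 7 comparisons, the genes with the most similar deposited folds were sought. Candidates had to be listed in every one of the 7 comparisons in which the Schlafen entry was listed. They were ordered by the root mean square difference of log2 folds over the pairs of groups in which both were listed. For Slfn8-201 the closest of 11 candidates was Il1rn, the interleukin-1 receptor antagonist, with a difference of 0.62 over 11 pairs, and the next was Ccrl2 at 1.50. Slfn9-201 had 219 candidates, of which Rtp4, Znfx1 and Samd9l were closest at 0.18, 0.21 and 0.22 over 6 pairs. All 3 of these are interferon-induced genes. Every candidate for Slfn9-201 was already listed as differing with interferon-gamma, so the search favoured such genes. For Slfn10-ps-201 the closest of 2398 was Diaph1 at 0.08 over 8 pairs, and for Slfn3-202 the closest of 443 was Cenpl, a centromere protein, at 0.26 over 5 pairs. Many candidates were available for Slfn9, Slfn10-ps and Slfn3, so close matches there were easier to find than for Slfn8.

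Genes that act beside the Schlafen family were counted in lists of related function. The shares of all genes given beside these counts are of named genes listed between some pair of groups. Some lists also hold genes listed in no pair, so counts and shares do not have the same basis. Of 18 genes of interferon signalling (receptors, kinases, factors and feedback), 12 were listed in some pair. With interferon-gamma without induction 11 rose and none fell, beside 25.7% higher and 24.5% lower of all genes. They include the feedback inhibitors Socs1 and Socs3, 473-fold and 12.9-fold higher in the authors' deposited table, and the transcription factor Stat2, 11.4-fold higher there. With induction 7 of the 18 rose, beside 33.7% of all genes, and Stat2, Irf7 and Usp18 were, like Slfn2 and Slfn5, without a listed difference. Both agents against interferon-gamma alone gave 1 of 18, beside 6.84% higher of all genes. This was Ifnb1, the type I interferon beta, 4.41-fold higher in the authors' deposited table.

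Of 21 genes linked to RNA cleavage or to restriction of translation, in which some Schlafen proteins act, 16 were listed in some pair. With interferon-gamma 13 rose without induction and 15 with induction, and 13 rose with both agents against interferon-gamma alone. None fell in these comparisons. Of all genes 25.7%, 33.7% and 6.84% were higher in these comparisons, in the same order. The largest folds in the last comparison were those of Ifit3b, Ifit1bl1, Ifit3 and Ifit1, at 15.97, 15.35, 5.43 and 5.11 in the authors' deposited table. The Ifit1 fold is that of an assembled-locus entry, at 10.7 FPKM with both agents and 2.10 FPKM with interferon-gamma. The annotated Ifit1 transcript, at 59.6 FPKM with interferon-gamma, was not listed in that comparison. Like Slfn8, Ifit3 was lower in construct than in parental cells without doxycycline, by 2.2-fold in the authors' deposited table. Of 6 RNA helicase sensors, 5 rose with interferon-gamma without induction, 4 with induction and 4 with both agents against interferon-gamma alone, beside the same shares of all genes. In the last of these Ddx60 had the largest fold at 4.32 in the authors' deposited table. Ddx60 was also lower in construct than in parental cells without doxycycline, by 2.12-fold in the authors' deposited table.

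Of 22 genes of quiescence and G1 control, the process in which Slfn2 acts in T cells, 15 were listed in some pair. With interferon-gamma without induction 2 rose and 5 fell, beside 25.7% higher and 24.5% lower of all genes. Among those that fell were Ccna2, a cyclin of the S and G2 phases, by 4.46-fold, Mki67, a proliferation marker, by 3.58-fold and Cdkn2c, an inhibitor of cyclin-dependent kinases, by 3.31-fold in the authors' deposited table. Those that rose were Cdkn1a, another such inhibitor, by 3.97-fold and E2f1, a transcription factor of S phase entry, by 2.59-fold in the authors' deposited table. With induction 1 rose and 5 fell, beside 33.7% higher and 34% lower of all genes. With both agents against interferon-gamma alone only E2f1 was listed, 2.01-fold lower in the authors' deposited table (q = 0.0332), beside 13.2% of all genes.

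Of 20 annotated neighbours inside and beside the Schlafen cluster on chromosome 11, 4 were listed in some pair. The share of all annotated genes listed is not known here, so this count has no background. With interferon-gamma without induction 2 of the 20 rose and none fell, beside 25.7% higher and 24.5% lower of all named genes. With induction 2 rose and 1 fell, beside 33.7% higher and 34% lower. Of the 5 genes on each side, Nle1 and Ap2b1 had listed differences between the 6 groups. Ap2b1, a subunit of the AP-2 clathrin adaptor, rose 2.88-fold with interferon-gamma without induction and 3.76-fold with induction in the authors' deposited table. Nle1 fell 2.47-fold with induction in the authors' deposited table. The predicted genes Gm11425 and Gm11427, which lie inside the cluster and were named after their values were seen, were 3.23-fold higher with induction and 2.60-fold higher without it in the authors' deposited table. The other annotated genes inside the cluster that are not Schlafen genes had no listed difference.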

How the data were processed

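Poly(A)-selected, strand-specific libraries were made from RAW264.7 cells, per the labels' protocols. The submitters' processing notes name STAR 2.5.3a, Cuffdiff 2.2.1, featureCounts, edgeR and FastQC 0.11.5 without roles. The sources used here do not name the authors' genome build. The authors' deposited table of pairwise Cuffdiff comparisons gives, per the file headers, a fold as a linear ratio, its direction, the summed FPKM of both groups and a q-value as deposited by the authors. Of its 112230 rows, 34824 compare any of the 15 pairs of the 6 groups and were used, and 77406 name another group and were not.

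Dividing the summed FPKM by the fold plus 1 gave the lower level of each pair, and multiplying by the fold gave the higher, which takes the deposited total to be a sum. Levels from several pairs were summarised by their median. The authors' q decided each call, at 0.05 or less, as no test could be run without values per sample. A gene was given a direction where all its called entries shared it. Depth per sample is unknown, and levels carry no interval.

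The text names every Slfn entry, Cited1, up to 4 called members with the largest folds of each list (some are not reported here), the 5 genes closest in pattern to a Schlafen entry of which the nearest are printed, and the listed genes among 5 neighbours on either side. Closest genes had at least 1 FPKM in 1 group. The members, the lists and these rules were chosen with earlier results of these data known. Promoter windows came from RefSeq, with overlapping motif matches kept, and identity from a global pairwise alignment. The settings varied were q (0.01 or less), the level (at least 1 FPKM in either group), a pseudocount (1 FPKM, with 1.5-fold or more), the scaling (median log2 ratio set to 0), the unit counted (entries, not genes) and the biotype (no pseudogenes). The steps were tested on simulated data. Python 3.11.15 was used with pandas 2.3.3, numpy 2.4.6, biopython 1.88 and matplotlib 3.10.9.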

Additional observations from a re-analysis of the deposited data

How the results depend on the processing

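No paired analysis was possible because the deposited table gives no values per sample, and for the same reason no replicate could be left out. At a q of 0.01 or less, the genes listed for doxycycline in parental cells were 25 in place of 49, those for CITED1 induction in unstimulated cells 13 in place of 22, and the Schlafen genes for construct against parental cells without doxycycline 0 in place of 1. Without pseudogene entries, doxycycline in parental cells gave 13 genes. After rescaling to a median log2 ratio of 0, the Schlafen genes higher with interferon-gamma without induction were 3 in place of 5. That shift was 0.65 without induction, 1.02 with induction and 0.10 for both agents against interferon-gamma alone. It rests on entries that the authors listed somewhere, so it need not measure scaling. The cause of these changes was not tested.

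Counting Slfn1, 20 listed ratios of Schlafen entries were examined, and all 20 met the minimum of 1 FPKM. With the pseudocount all 20 stayed past the lower limit of 1.5-fold set for it, but not all stayed past 2-fold. Under 2-fold were the log2 ratios of Slfn8-201 for construct against parental cells without doxycycline (-0.82) and Slfn3-201 with both agents against doxycycline (-0.95). The same held for Slfn3-202 with both agents against interferon-gamma (-0.94). At a q of 0.01 or less 5 were lost, namely Slfn8-201 for construct against parental cells, Slfn5-203 for interferon-gamma without induction, Slfn3-202 with both agents against doxycycline and against interferon-gamma, and Slfn9-203 with both agents against interferon-gamma. Rescaling lost 2, Slfn9-201 and Slfn10-ps-201 for interferon-gamma without induction. None of the 20 changed sign under these alternatives. Slfn3-202 with both agents and the Slfn8 entries in untreated construct cells lie under 1 FPKM. So do Slfn8-202 and Slfn8-203 in construct cells given doxycycline alone. At such levels depth, which is unknown here, limits precision most.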
